A study of Sorghum bicolor with 15 samples.

Results

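In sorghum roots sampled at 2 ages, 150 genes had a lower transcript level at 35 d than at 28 d in the genotype SRN39 and nearly the same level at both ages in the genotype Shanqui Red (SQR). They were chosen from the read counts themselves. For each gene, L is log2(CPM + 1), where CPM is the count scaled to a library total of 1000000. A gene met the rule when its highest L in SRN39 at 35 d was below its lowest L in SRN39 at 28 d, the mean fall in SRN39 was at least 1, and the mean change of L in SQR lay within 0.25 of 0. Of the 34129 genes in the table, 159 met it, and the 150 with the largest SRN39 fall are described here. All 150 were among the 18473 genes with over 1 CPM in at least 3 libraries, a filter that a gene can pass through its 4 SRN39 libraries at 28 d alone.

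Striga is a parasitic weed whose seeds germinate when they sense strigolactones, hormones that cereal roots also release into the soil, above all when phosphate is scarce. SRN39 is a Striga-resistant sorghum that carries a loss-of-function allele of LGS1, a sulfotransferase gene that sets which strigolactone is made, and it exudes mainly orobanchol. SQR is susceptible and exudes mainly 5-deoxystrigol. Strigolactones also act inside the plant together with auxin in shaping branching and root growth, and gene expression in a root changes as the root system ages.

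The groups were SRN39 at 35 d and at 28 d (4 biological replicates each) and SQR at 35 d (3 replicates) and at 28 d (4 replicates). All seedlings were raised in plugs of soil sterilized by gamma irradiation and moved with the plug into sand-filled cones in a greenhouse. They received a nutrient solution low in phosphate, and the whole washed root system was frozen. The titles of all libraries share the label S_CTR, which is not explained in the sources used here. Each genotype is a single variety, and the varieties diverge across the genome, so a difference between them cannot be assigned to LGS1 or to any other locus. The samples hold whole roots, in which fewer cells of a type and less RNA per cell cannot be told apart.

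The 15 libraries held between 6369710 and 17304929 counts. LGS1 (Sobic.005G213600) had 0.408 to 1.93 CPM in the SRN39 libraries, against 18.1 to 84.2 CPM in the SQR libraries, so every library fitted its genotype label. The gene IDs carry no names in the count table, and of the genes with a description held here only 2 dirigent-like genes belong to the root markers that were listed, with 0.29 to 192 CPM across the libraries. No gene described there belongs to the photosynthesis markers, so carry-over of green tissue was not analysed here. The 10 most abundant genes took 10.9 to 12.5% of the counts in SRN39 at 35 d and 13.5 to 16.5% at 28 d, against 8.37 to 16.6% in the SQR libraries. On library totals the median gene of the 18473 was not level between the ages: its L was 0.24 higher at 35 d than at 28 d in SRN39 and 0.20 higher in SQR.

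The median member was transcribed above the median gene in every group, which the rule favours, since a fall of at least 1 in log2(CPM + 1) cannot be met from a level near 0. The SRN39 means at 28 d began at 1.62 CPM, and 118 members reached 10 CPM there. The members' median level was 13.1 CPM in SRN39 at 35 d and 33.0 CPM at 28 d, against 27.9 CPM in SQR at 35 d and 27.2 CPM at 28 d. The same medians over all 18473 genes were 8.68 CPM in SRN39 at 35 d and 6.79 CPM at 28 d, against 9.50 CPM in SQR at 35 d and 7.43 CPM at 28 d. In SQR, 108 members averaged at least 10 CPM and 45 at least 100 CPM, shares reached by 46.0% and 9.35% of all genes. Of the members, 5 (3.33%) were within the 200 highest genes of SRN39 at 28 d, against 1.08% of all genes past the filter, and the first of them stood at rank 81.

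As a direct consequence of the rule, the members were lower at 35 d in SRN39. The change in L ran from -3.45 to -1.01, with quartiles of -1.33, -1.19 and -1.10. There, 5 members were lower by 2 or more, 15 by 1.5 to 2, and 130 by less than 1.5. Expressed as CPM, the SRN39 level at 35 d was a median of 40.7% of the level at 28 d (quartiles 34.8% and 44.9%, range 0.949% to 53.3%). In SQR the change had a median of -0.04 and a range of -0.25 to 0.24, with 91 members lower at 35 d, 58 higher and 1 equal. No test is given for these age changes, since they chose the genes.

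**Figure D1:**
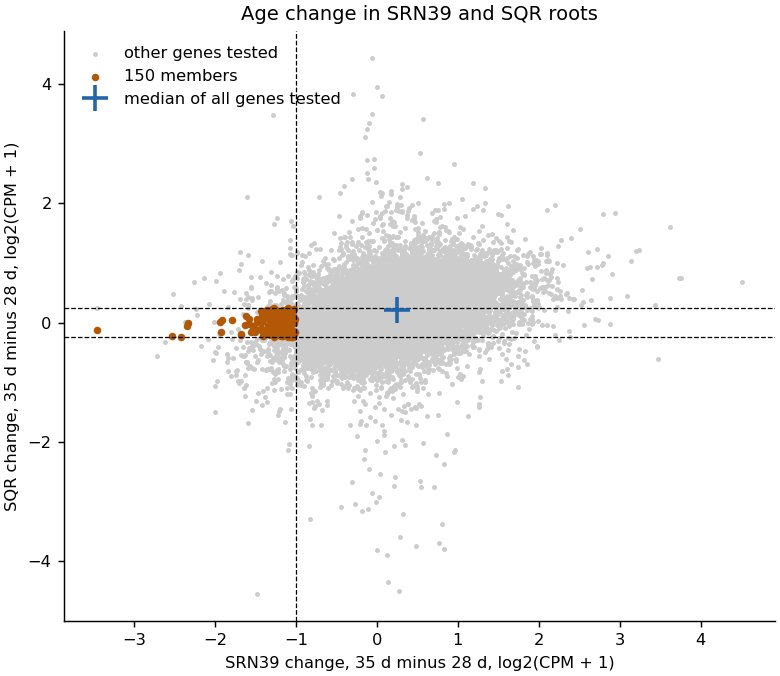
Change in L (35 d minus 28 d) in SRN39 on the x axis and in SQR on the y axis, for the 18473 genes past the filter (grey) and the 150 members (orange), with dashed lines at the limits of the rule. The members fill a narrow band with SRN39 changes of -3.45 to -1.01, and the blue cross marks the median gene at 0.24 in SRN39 and 0.20 in SQR.

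The flat course in SQR depended on how the libraries were scaled. Relative to the median gene, the members changed by -1.44 in SRN39 and by -0.25 in SQR. When CPM were computed on library sizes scaled by TMM (trimmed mean of M values, a scaling that sets the bulk of genes level), the median change of the members was -1.44 in SRN39 and -0.24 in SQR, against 0.03 for all genes in both genotypes. On that scale all 150 members were still lower by at least 1 in SRN39. In SQR, 138 of them were below 0, with a range of -0.47 to 0.17, and 70 were lower by over 0.25. No member had a fall of L in SQR that reached 0.5 of its fall in SRN39. With 1 added to CPM, L can hardly fall from a level near 0, so this says little about the members lowest in SQR. Of the members, 80 meet the full rule on both scales.

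Among genes with this fall in SRN39, a flat course in SQR was one of several. The SRN39 part of the rule was met by 415 genes, of which 193 were lower in SQR at 35 d by over 0.25, 159 lay within 0.25 and 63 were higher by over 0.25. In 16 of the 415, SQR met the same criteria for a fall as SRN39. The mirror image of the rule, a rise in SRN39 with a flat course in SQR, was met by 408 genes on library totals.

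The limits of the rule cut through a continuous range. The last 3 members had SRN39 changes of -1.02, -1.01 and -1.01, and the first 3 genes past the limit of 150 had -1.01 each. The 3 members nearest to the SQR limit had SQR changes of -0.246, -0.246 and -0.249. The 3 genes just past it had 0.2504, 0.2505 and -0.2526, and the first of these had an SRN39 change of -3.46, as large as that of any member. The smallest gaps between the highest SRN39 library at 35 d and the lowest at 28 d were 0.02, 0.09 and 0.10 in L among members.

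The members varied little between the SRN39 libraries at 28 d and more between those at 35 d. Averaged over the 150 genes, the deviation of L from the gene's mean over all libraries was -0.51, -0.60, -0.71 and -1.03 in replicates 1 to 4 of SRN39 at 35 d (mean -0.71 ± 0.23, SD, n = 4), against 0.52 to 0.61 in SRN39 at 28 d (0.57 ± 0.04, n = 4). It was -0.09, 0.08 and 0.19 in the 3 libraries of SQR at 35 d (0.06 ± 0.14), against 0.04 to 0.18 in SQR at 28 d (0.10 ± 0.06, n = 4). The summed CPM of the members was 7485 ± 1028 in SRN39 at 35 d and 17441 ± 448 at 28 d, against 14343 ± 1664 in SQR at 35 d and 14983 ± 914 at 28 d. In the summed level, too, the SQR libraries lay between the SRN39 libraries of the 2 ages, from 12586 to 16003 CPM, without touching either group.

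**Figure D2:**
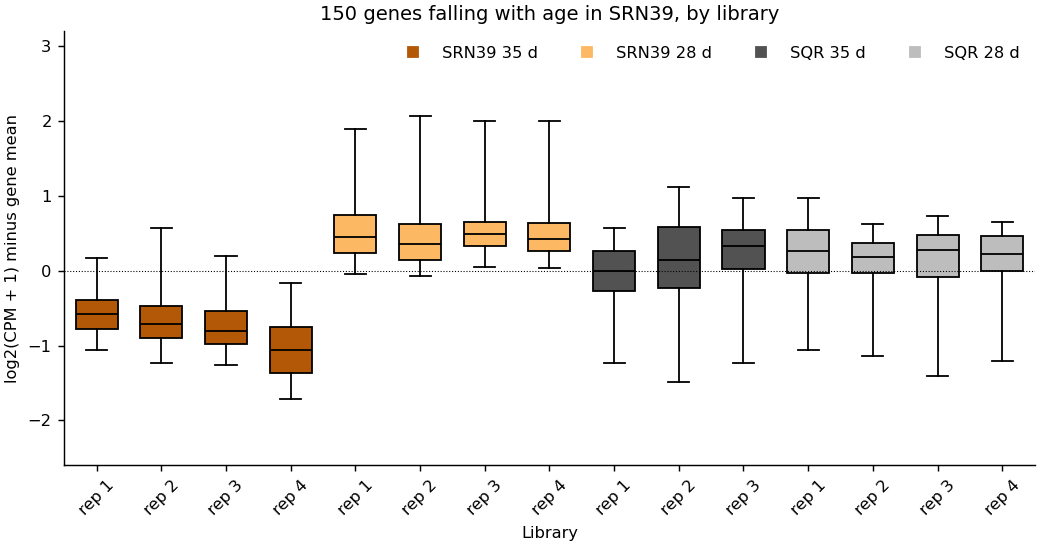
Deviation of L from each gene's mean over the 15 libraries, for the 150 members in each library (box, quartiles and median; whiskers, 5th to 95th percentile; SRN39 in orange, SQR in grey, 35 d darker than 28 d). Replicate 4 of SRN39 at 35 d lies lowest, with a mean deviation of -1.03, and the SQR libraries of both ages lie near 0.

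Replicate 4 of SRN39 at 35 d was the lowest of its group in 99 members (66%). It was the lowest in 18.3% of all genes past the filter, and in 64.9% of the other 265 genes that had the SRN39 fall. Without it the median change of the members in SRN39 was -1.11, and 112 of the 150 kept a fall of at least 1. Leaving out any other SRN39 library at 35 d gave medians of -1.25 to -1.21 with 141 to 150 members kept. The members' median SD of L was 0.30 in SRN39 at 35 d (0.24 over all genes) and 0.21 at 28 d (0.24), against 0.38 in SQR at 35 d (0.39) and 0.22 at 28 d (0.27).

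Beside SQR, the members were for the most part lower in SRN39 at 35 d, which follows largely from a rule that asks for a fall in SRN39 and a flat course in SQR. SRN39 minus SQR in mean L had a median of -1.08 at 35 d (quartiles -1.32 and -0.59) and of 0.14 at 28 d (quartiles -0.09 and 0.50). At 35 d, 129 members were lower in SRN39 than in SQR and 21 were higher, and at 28 d 47 were lower and 103 higher. The SRN39 mean lay within 0.5 of the SQR mean for 22 members at 35 d (14.7%, against 55.2% of all genes) and for 106 at 28 d (70.7%, against 73.4%), so that at 28 d the members were about as often near SQR as any gene. By these means, 82 members were higher than SQR at 28 d and lower at 35 d, 47 were lower at both ages and 21 were higher at both.

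The 4 SRN39 libraries of each age were placed against the whole range of the 7 SQR libraries of both ages. They count as within it when neither all above nor all below. This divided the members into 6 patterns. These use the same libraries as the rule, so the counts are descriptions, with the share of all 18473 genes beside each. The most frequent pattern, within the SQR range at 28 d and below it at 35 d, held 96 members (6.34% of all genes). In a further 19 members SRN39 was above SQR at 28 d and within its range at 35 d (1.84%). It was above at 28 d and below at 35 d in 6 members (0.0541%, 10 genes in all), above at both ages in 9 (4.31%), below at both in 1 (3.98%) and within at both in 19 (71.0%). In all, 103 members were below the SQR range at 35 d (10.4% of all genes), 34 were above it at 28 d (6.2%), and 25 were above it at 28 d but not at 35 d (1.89%).

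The patterns differed in level as well as in direction. In the first pattern the median level was 14.4 CPM in SRN39 at 35 d and 34.3 CPM at 28 d, against 38.3 CPM in SQR at 35 d and 34.6 CPM at 28 d. In the members above SQR at 28 d and within it at 35 d, the median level was 7.01 CPM in SRN39 at 35 d and 21.8 CPM at 28 d, against 7.14 CPM in SQR at 35 d and 6.26 CPM at 28 d, so that in these genes SRN39 stood apart from SQR at the earlier age. The 6 members that crossed from above to below were abundant, with medians of 119 CPM in SRN39 at 35 d and 249.9 CPM at 28 d, against 168 CPM in SQR at 35 d and 185 CPM at 28 d. The 9 members above SQR at both ages had medians of 9.47 CPM in SRN39 at 35 d and 41.7 CPM at 28 d, against 1.07 CPM in SQR at 35 d and 1.29 CPM at 28 d.

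**Figure D3:**
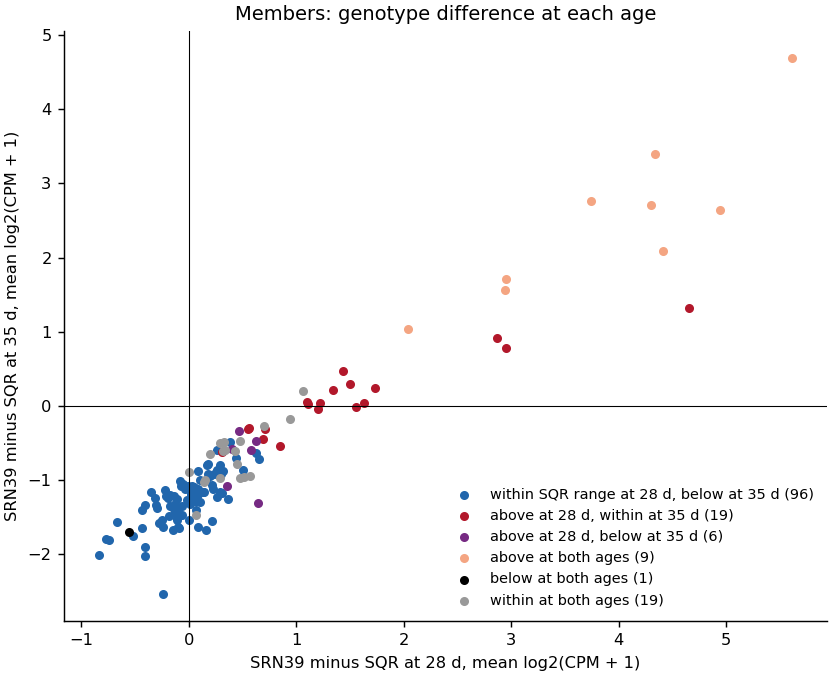
SRN39 minus SQR in mean L for each of the 150 members, at 28 d on the x axis and at 35 d on the y axis, coloured by the position of the SRN39 libraries relative to the SQR range. The 96 blue members lie near 0 on the x axis and below 0 on the y axis, while the 9 members above SQR at both ages lie at the upper right.

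For 11 members the level in SQR averaged under 1 CPM (8.21% of all genes are this low), so that a flat course in SQR means a level near 0 at both ages. No SQR library exceeded 1.40 CPM for any of them. In SRN39 they had 0.026 to 9.47 CPM at 35 d (median 1.79) and 1.62 to 52.2 CPM at 28 d (median 7.35), and all 11 were above the SQR range at 28 d. One of them had no count in any of the 7 SQR libraries, which allows a level of up to 0.0377 CPM (3 counts over the 7 libraries, counting error only), against 0.164 CPM in SRN39 at 35 d and 1.62 CPM at 28 d.

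The difference between genotypes averaged over the ages was fitted for every gene, but for the members it is not independent of their choice. The average and the age change would be uncorrelated within SRN39 only if both ages had the same spread. The members' median SD of L was 0.30 in SRN39 at 35 d and 0.21 at 28 d. The average also contains the low SRN39 libraries of 35 d: a gene that is level with SQR at 28 d and lower in SRN39 at 35 d has a negative average by arithmetic. The counts of members called are therefore a description, from which no excess over all genes is read. In one edgeR quasi-likelihood model of the 4 groups, with Benjamini-Hochberg adjustment over all 18473 genes and an adjusted p under 0.05, 6819 genes (36.9%) were called, 3077 higher in SRN39 (16.7%) and 3742 lower (20.3%). Of the members, 96 were called (64%), 21 higher in SRN39 (14%) and 75 lower (50%), and 54 were not called. The median log2 difference of the members was -0.51 (quartiles -0.76 and -0.07, median SE 0.18), against -0.06 over all genes.

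The 75 members called lower in SRN39 differed by -1.57 to -0.40 on the log2 scale (median -0.76), and 60 of them by less than 1. The 21 called higher differed by 0.62 to 6.55 (median 3.81), with 14 above 2. Of these 21, 9 averaged under 1 CPM in SQR and could enter the list only through high SRN39 libraries, so their direction was fixed by how they were chosen. A model with genotype and age as additive terms, which has no term for their interaction, called 59 members, 21 higher and 38 lower, and an adjusted p under 0.01 left 49 called lower.

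**Figure D4:**
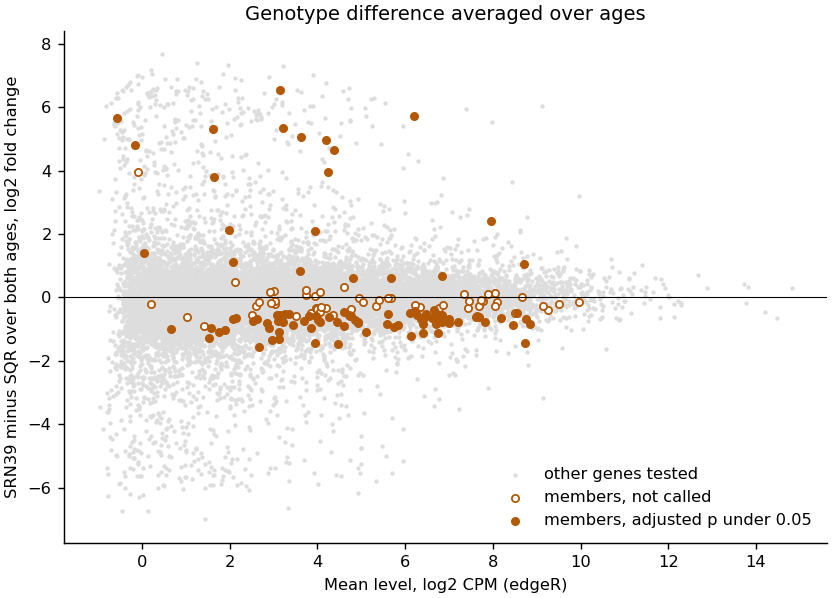
Log2 difference SRN39 minus SQR averaged over both ages (y axis) against mean log2 CPM (x axis) from edgeR, for all genes past the filter (grey), the 96 called members (filled) and the 54 not called (open). The 75 members called lower lie between -1.57 and -0.40, and the 21 called higher reach 6.55.

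Only 2 of the 150 members are among the 413 genes with a description held here, taken from the best Arabidopsis or rice match. The lack of one for the other members therefore says nothing about whether they are annotated. Sobic.001G377000, on chromosome 1, is a dormancy/auxin associated family protein, a family first known from genes that are repressed by auxin or raised in dormant buds. It had 144, 118, 89.4 and 189 CPM in SRN39 at 35 d and 419, 319, 329 and 329 CPM at 28 d, against 556, 419 and 636 CPM in SQR at 35 d and 669, 385, 953 and 604 CPM at 28 d. Its SRN39 libraries at 35 d lay under all other libraries, while those at 28 d overlapped SQR through replicate 1 alone, the other 3 lying below every SQR library. The means were 135 ± 42.4 CPM in SRN39 at 35 d and 349 ± 47.0 CPM at 28 d, against 537 ± 110 CPM in SQR at 35 d and 653 ± 234 CPM at 28 d (SD, n = 4, 4, 3 and 4). Averaged over the ages it was lower in SRN39, with a log2 difference of -1.43 (SE 0.21), from -0.85 at 28 d and -2.01 at 35 d. That average contains the fall that chose the gene, so no p is given.

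The other described member, Sobic.001G002000, also on chromosome 1, is a protein kinase with an octicosapeptide/Phox/Bem1p domain, a module through which proteins bind each other. It had 202, 178, 156 and 177 CPM in SRN39 at 35 d and 394, 370, 345 and 345 CPM at 28 d, against 176, 200.1 and 294 CPM in SQR at 35 d and 229, 212, 299 and 251 CPM at 28 d. Here the SRN39 libraries at 28 d stood above every SQR library, and those at 35 d reached into the SQR range. The means were 178 ± 18.8 CPM in SRN39 at 35 d and 363 ± 23.2 CPM at 28 d, against 223 ± 62.1 CPM in SQR at 35 d and 248 ± 37.6 CPM at 28 d. The average difference between genotypes was 0.14 (SE 0.16), and the gene was among the members not called. This average combines a difference of 0.62 at 28 d and -0.34 at 35 d. The fall that chose the gene is part of it, so no p is given. In the study this gene is listed as different between genotypes, from a model with an interaction of genotype and time. The coding of that model is not given in the sources used here, so its genotype term may be another contrast than this average.

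**Figure D5:**
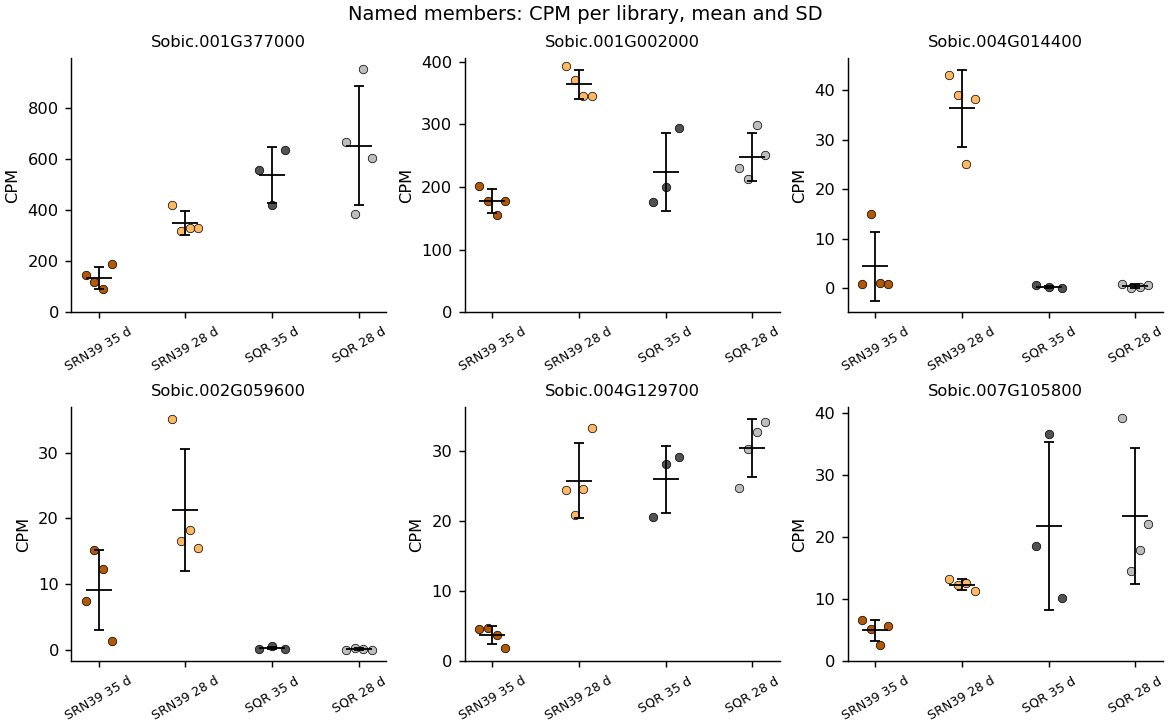
CPM per library (points) of the 2 described members and 4 undescribed members, with the mean (long bar) and SD (error bar) of each group, for SRN39 at 35 d and 28 d and SQR at 35 d and 28 d. Sobic.001G377000 and Sobic.004G129700 are lowest in SRN39 at 35 d, and Sobic.004G014400 and Sobic.002G059600 stay under 1 CPM in every SQR library.

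The members with the largest falls included genes on both sides of SQR. Sobic.004G014400, on chromosome 4, had the largest fall of all, with 0.936, 14.9, 1.16 and 0.886 CPM in SRN39 at 35 d and 43.1, 39.2, 25.1 and 38.2 CPM at 28 d, against 0.597, 0.291 and 0.156 CPM in SQR at 35 d and 0.894, 0.083, 0.231 and 0.785 CPM at 28 d. Replicate 2 held most of the SRN39 level at 35 d, and the other 3 libraries were close to SQR. The SQR libraries together held 30 counts of this gene, against 1846 in the SRN39 libraries. Its average difference was 5.06 (SE 0.68), and 4.00 without replicate 2 of SRN39 at 35 d. With so low a level in SQR its direction was fixed by how it was chosen, so no p is given.

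Sobic.004G129700, also on chromosome 4, had the second largest fall and the opposite position. It had 4.57, 4.71, 3.78 and 1.93 CPM in SRN39 at 35 d and 24.4, 20.9, 24.6 and 33.4 CPM at 28 d, against 20.6, 28.2 and 29.2 CPM in SQR at 35 d and 24.7, 30.3, 32.7 and 34.2 CPM at 28 d. The 3 other groups overlapped, and SRN39 at 35 d stood apart from all of them, at 3.75 ± 1.28 CPM. Its average difference was -1.47 (SE 0.18), with -0.16 at 28 d and -2.78 at 35 d. That average follows largely from the fall that chose the gene, so no p is given.

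Sobic.002G059600 on chromosome 2 had the most positive average difference of the members. It had 7.38, 15.2, 12.3 and 1.29 CPM in SRN39 at 35 d and 35.2, 16.5, 18.2 and 15.4 CPM at 28 d, and no SQR library exceeded 0.484 CPM. The highest 35 d library and the lowest 28 d library of SRN39 nearly met. Its average difference was 6.55 (SE 0.59), resting on 12 counts in SQR against 1367 in SRN39, and 7.17 without replicate 2 of SQR at 28 d. Here, too, the direction was fixed by how the gene was chosen, so no p is given. Sobic.007G105800 on chromosome 7 had one of the most negative average differences, with 6.65, 5.16, 2.70 and 5.64 CPM in SRN39 at 35 d and 13.3, 12.3, 12.6 and 11.3 CPM at 28 d, against 18.5, 36.6 and 10.3 CPM in SQR at 35 d and 39.1, 14.5, 17.9 and 22.1 CPM at 28 d. The SQR libraries of this gene spread widely within each age. The average difference was -1.45 (SE 0.25), with -0.86 at 28 d and -2.04 at 35 d. That average contains the fall that chose the gene, so no p is given.

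The gene families of the 2 described members could be followed only through the 413 genes with a description held here. Those genes were listed in the study for a difference between genotypes in these same libraries, so they are no random sample of a family. The auxin and kinase genes among them all lie on chromosome 1, so neither list covers its family across the genome. Of 4 genes whose Arabidopsis or rice match is described by auxin, 3 were lower and 1 higher in SRN39 at 35 d than at 28 d by edgeR (15.2% of all genes were called lower and 15.7% higher), and in SQR 1 was lower and none higher (1.53% lower and 1.07% higher). One of the 3 lower genes is the member Sobic.001G377000 itself, which was chosen for this change. Sobic.001G331200, whose GH3 family attaches amino acids to auxin, fell by 2.19 in log2 units in SRN39 (adjusted p = 1.4e-05), against a change of 0.29 in SQR (adjusted p = 0.46). Sobic.001G477400, an RNI-like protein whose rice match is described as AUXIN SIGNALING F-BOX 2, of a family of auxin receptors, fell in SRN39 by 1.09 (adjusted p = 0.0012), against 0.02 in SQR (adjusted p = 0.96). Sobic.001G056100, an AUX/IAA protein of the repressor family through which auxin acts on transcription, went the other way, with 0.90 in SRN39 (adjusted p = 0.0067) and -1.15 in SQR (adjusted p = 0.022). Whether the changes differ between the genotypes was not tested for these genes.

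The descriptions of 15 genes name a kinase or phosphatase, 2 of them regulators of kinases rather than kinases (Sobic.001G222300 and Sobic.001G257400). Of the 15, 2 were lower and 3 higher at 35 d in SRN39, and none was called in SQR. Over all genes, 15.2% were called lower and 15.7% higher in SRN39, against 1.53% and 1.07% in SQR. No excess over all genes is read from these counts. One of the 2 lower genes is the member Sobic.001G002000, likewise chosen for it, and the other is Sobic.001G134100, an AMP-activated protein kinase-related gene, with -1.04 (edgeR adjusted p = 0.0034). The 3 higher genes were Sobic.001G503300, the calmodulin-binding receptor-like kinase CRCK2 (1.57, adjusted p = 0.00028), Sobic.001G360000, a pyruvate dehydrogenase kinase that holds back entry of carbon into respiration (1.04, adjusted p = 0.00098), and Sobic.001G341600, a further protein kinase (1.02, adjusted p = 0.0056).

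The members were spread over all 10 chromosomes, with 27 on chromosome 1, 20 each on chromosomes 2 and 6, 18 on chromosome 9, 17 on chromosome 4, 15 on chromosome 3, 12 on chromosome 7, 9 on chromosome 5, 8 on chromosome 10 and 4 on chromosome 8. They made up 0.42% of the genes past the filter on chromosome 8 and 1.20% on chromosome 6, against 0.812% in all. In the order of the gene numbers, 7 pairs of members lay within 10 places of each other and 2 pairs were adjacent, and 4 of the 7 pairs shared a pattern relative to SQR. Since the strand used in counting is not given in the sources used here, overlapping or antisense neighbours cannot be told apart in these counts, nor can close paralogs.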

How the data were processed

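The authors pooled the technical replicates of each 3′ mRNA-Seq library, trimmed barcodes and adapters, aligned reads to BTx623 with STAR and deposited unnormalized whole-number counts per gene. STAR's version, the annotation and the strand setting were not given in the sources used here. The table holds 1 column of counts beyond the described samples, labelled replicate 4 of SQR at 35 d, which was left out.

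Members were chosen on CPM of library totals with a pseudocount of 1. The members and the gene lists were chosen with earlier results of these data known. The fit used edgeR 4.0.16 under R 4.3.3: genes over 1 CPM in at least 3 libraries, TMM scaling, one quasi-likelihood model of the 4 groups, Benjamini-Hochberg adjustment, two-sided, called at an adjusted p under 0.05. The p-values set a difference between groups against the spread between biological replicates, estimated over the 4 groups together. CPM in the text are on library totals, and edgeR differences are on TMM-scaled sizes. Total counts were 6369710 to 17304929 per library, and no libraries held identical counts. Libraries with the same replicate number did not deviate together (correlations of -0.22 to 0.17 over 21 pairs, 5 above 0.1), so they were not paired. The model was tested on simulated counts.

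Members were to be named by the largest SRN39 fall, abundance, the largest genotype differences, a described family, neighbouring positions and the limits of the rule. Since the RefSeq gene table matched 0 of the IDs, only 4 undescribed members are named, and the others are counted. Descriptions come from the supplementary gene table, of which 413 genes were held. Alternatives were RLE factors, library totals, limma-voom 3.58.1, DESeq2 1.42.0, other count filters, a replicate block, an additive model, an adjusted p under 0.01, other pseudocounts and SQR limits, and leaving out each library.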

Additional observations from a re-analysis of the deposited data

Results flagged for a closer look

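In 3 of the 21 groups of 4 libraries examined over the 6 named members and the mean deviation of all members, 1 library lay far from the rest by Dixon's criterion, which chance alone meets in about 1 of 20 groups. Sobic.004G014400 had 14.93 CPM in replicate 2 of SRN39 at 35 d, while the other 3 libraries had 0.886 to 1.16 CPM. Sobic.001G377000 had 419.2 CPM in replicate 1 of SRN39 at 28 d, against 319 to 329 CPM in the other 3. Sobic.002G059600 had 35.17 CPM in replicate 1 of SRN39 at 28 d, against 15.4 to 18.2 CPM in the other 3.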

How the results depend on the processing

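Which genes meet the rule depended on the scaling and the limits. The count of 159 became 285 with TMM-scaled library sizes (80 of the 150 kept), 89 with a pseudocount of 5 (78 kept), 266 with SQR changes within 0.5 (150 kept) and 66 within 0.1 (60 kept). Leaving out 1 library gave 126 to 203 genes, with 102 to 150 of the 150 kept. The members above SQR at 28 d but not at 35 d numbered 21 to 29 when 1 library was left out. Against 96 members called for genotype, the additive model called 59 of the 150 (38 lower, against 75), and an adjusted p under 0.01 left 49 lower. With replicate number as a block, although the numbers do not pair the libraries, 86 members were called, 21 higher and 65 lower, with a median difference of -0.49. Leaving out 1 library gave 85 to 98 calls, 18 to 22 higher and 63 to 78 lower, with a median of -0.58 to -0.42. DESeq2 called 22 higher and 77 lower, and limma-voom 21 higher and 77 lower. The 6 named members kept their call and sign in all 23 alternatives run for each. Since these members were chosen from the same libraries, that is a description. Leaving out 1 library gave differences of -1.54 to -1.28 for Sobic.001G377000, 0.06 to 0.33 for Sobic.001G002000, 4.00 to 5.38 for Sobic.004G014400, 6.35 to 7.17 for Sobic.002G059600, -1.55 to -1.35 for Sobic.004G129700 and -1.59 to -1.21 for Sobic.007G105800.

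SQR at 35 d has 3 libraries, so the flat course in SQR is the least certain part of the rule: without replicate 1 of that group 102 of the 150 members still met it, without replicate 2 111 and without replicate 3 107. Counts of 30 or fewer in SQR limit the differences given for the lowest genes. Intervals and floors cover counting error only.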

Other observations

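One member lies 18 gene places from LGS1 on chromosome 5. It had 63.4 ± 23.3 CPM in SRN39 at 35 d and 155 ± 21.4 CPM at 28 d, against 125 ± 51.7 CPM in SQR at 35 d and 114 ± 33.8 CPM at 28 d (SD, n = 4, 4, 3 and 4). LGS1 itself was near 0 in every SRN39 library.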
